A study of Homo sapiens with 16 samples.

Results

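The genes described here are 42 genes of the G2/M transition and mitosis, named by symbol and matched to the Ensembl identifiers of the deposited tables. All 42 were found among the 60666 genes of each table, and all 42 passed the filter on low counts that left 22597 genes for testing. Expression was measured in U2OS cells, a human sarcoma line, to ask how type II phosphatidylinositol phosphate kinases (PIP4Ks) affect gene expression. The 3 stable knockdown lines were made with short hairpin RNAs: shPIP4K2A, shPIP4K2B and shPIP4K2A/2B, the last called the double knockdown here. The control line carried the plko.puro vector without a hairpin and is called empty vector. No line with a hairpin against an unrelated sequence is among the groups, and all 4 lines were grown with puromycin. Cells were irradiated without culture medium with UV-C light (30 J/m2, called UV) and collected 6 h later, or were left untreated. Each of the 8 groups had 2 libraries, 16 in all. No label says that the libraries of a group came from separate cultures, so the p-values measure the spread between libraries, which may be technical.

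Entry into mitosis is driven by the kinase CDK1 bound to cyclin B, which CDC25 phosphatases switch on and the kinase WEE1 holds off. Most genes of this group are transcribed late in the cell cycle, by B-MYB and FOXM1 together with the MuvB complex at promoter elements called CHR, often beside CCAAT boxes bound by NF-Y. In cells that rest or that have active p53, the MuvB complex with E2F4 and p107 or p130 (DREAM) keeps the same promoters silent. Their messenger RNA level in a population of growing cells therefore depends on how many cells are in G2 or mitosis as well as on the amount per cell, and in bulk RNA fewer such cells and less RNA per cell cannot be told apart.

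Promoters were read from RefSeq (GRCh38.p14), which held an entry for 35 of the 42 genes, each from 250 bases before to 50 after the start of the gene. The CHR letters TTTGAA, searched on both strands, stood in 23 of the 35 promoters (65.7%), against 15.2% of all 35116 promoters of the same length. The related letters TTTAAA stood in 14 (40%), against 12.2% of all promoters. Either was present in 28 of 35 (80%), against 24.0% of all, and CCAAT, which overlaps neither, was also present in 28 (80%), against 34.6%. A match is a description of letters and not a measured binding site. The stretch from 150 bases before to 30 after the start is shown for 4 genes, 5′ to 3′ on the strand of the gene. These had the lowest p among the genes that changed after UV and hold TTTGAA or TTTAAA there. Those letters and CCAAT, on either strand, are in capitals.
CCNF, chr16:2429297-2429476, plus strand: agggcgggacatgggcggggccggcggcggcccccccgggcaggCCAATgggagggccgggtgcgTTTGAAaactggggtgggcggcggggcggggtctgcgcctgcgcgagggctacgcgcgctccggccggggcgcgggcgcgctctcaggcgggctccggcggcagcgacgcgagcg
PTTG1, chr5:160421705-160421884, plus strand: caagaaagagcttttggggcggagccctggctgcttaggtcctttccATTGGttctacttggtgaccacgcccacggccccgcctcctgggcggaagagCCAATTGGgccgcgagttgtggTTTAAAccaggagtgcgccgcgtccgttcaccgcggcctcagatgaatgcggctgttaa
CENPA, chr2:26785906-26786085, plus strand: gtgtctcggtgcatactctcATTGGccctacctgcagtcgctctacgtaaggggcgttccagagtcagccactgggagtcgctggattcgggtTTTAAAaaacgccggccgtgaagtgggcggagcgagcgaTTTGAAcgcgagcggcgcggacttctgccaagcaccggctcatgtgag
KIF18A, chr11:28108127-28108306, minus strand: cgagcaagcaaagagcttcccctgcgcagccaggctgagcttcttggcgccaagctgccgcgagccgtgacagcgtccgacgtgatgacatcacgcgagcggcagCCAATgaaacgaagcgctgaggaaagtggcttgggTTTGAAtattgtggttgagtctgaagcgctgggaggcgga
The letters TTTGAA began at -85 from the start in CCNF, at -18 in CENPA and at -10 in KIF18A. The related letters TTTAAA began at -29 in PTTG1 and at -57 in CENPA. Of these genes CCNF, CENPA and KIF18A were lower after UV and PTTG1 was higher. Promoters with TTTGAA or TTTAAA were 12 of 15 among the genes that fell after UV in the mean of the 4 lines. They were 7 of 10 among those that rose and 9 of 10 among those that did not pass the test.

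Of the 16 libraries, 15 held 28.0 to 39.9 M expected counts. The library labelled empty vector untreated replicate 1 held 1.28 M and stood apart. In it 38 of the 42 genes lay below their range in the other 15 libraries, 1 lay above it, and CDC25C and CENPA were at 0. It was set aside, so untreated empty vector was represented by 1 library, which the fit assumes to vary like the other groups. With that library kept, no comparison called any of the 42 genes, except 1 rise in the mean UV change. PIP4K2A had 7.48 to 22.9 CPM (counts scaled to the library total) in libraries with a hairpin against it, against 43.2 to 62.9 CPM in those without. PIP4K2B had 11.4 to 26.6 CPM with its hairpin, against 65.1 to 107 CPM without. The mesenchymal markers VIM, FN1, COL1A1 and SPARC were abundant, COL1A2 stayed at or under 0.627 CPM, TWIST1 was at 0 in all 15, and blood markers summed to at most 2.29 CPM.

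Counted per transcript length, the 42 genes covered a wide range of levels. The highest mean over 15 libraries was 152 TPM, a level corrected for transcript length, for UBE2C, the E2 enzyme of the anaphase-promoting complex (APC/C). CCNB1, the main cyclin B, followed with 145 TPM, and CDC20, the APC/C activator, and PTTG1, the securin that restrains separase, each had 137 TPM. The transcription factor FOXM1 had 129 TPM. At the low end stood the centromere motor CENPE with 8.03 TPM, the kinesin KIF14 with 6.27 TPM and the phosphatase CDC25C with 4.90 TPM. Other values for single genes are scaled CPM unless given as plain CPM. Scaled CPM carry the composition factor of each library (TMM) and compare a gene with itself between libraries.

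Taken as a median, the 42 genes were higher in the single knockdowns than in the double knockdown and empty vector. Each gene's log2 scaled CPM was set against its own mean over 15 libraries, and the median of these deviations was taken in each library. It was 0.21 and 0.16 in UV-treated PIP4K2A-knockdown libraries and 0.20 and 0.04 in untreated ones. In PIP4K2B-knockdown libraries it was 0.16 and 0.16 after UV and 0.28 and 0.18 untreated. In double-knockdown libraries it was -0.26 and -0.26 after UV and -0.21 and -0.23 untreated. Empty-vector libraries had -0.19 and -0.21 after UV and -0.06 in the untreated library. Thus on TMM scaling all 8 libraries of the single knockdowns lay above 0, and all 7 of the double knockdown and empty vector lay below it. Single genes departed from this: KIF11, BIRC5, BUB3, MAD2L1 and ECT2 had their highest library in empty vector, and KIF11, BIRC5 and BUB3 their lowest in a single knockdown. The kinase genes TTK and AURKA varied most, with standard deviations over the 15 libraries of 0.54 and 0.53 on the log2 scale, and the checkpoint gene BUB3 varied least, with 0.15. With scaling to ribosomal protein genes the median log2 UV change of the 42 genes was -0.70, -1.06, -0.95 and -0.83. These are the PIP4K2A, PIP4K2B and double knockdowns and empty vector, where all genes had -0.79, -0.90, -0.85 and -0.70. The split of libraries around 0 was not computed on that scaling.

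**Figure D1:**
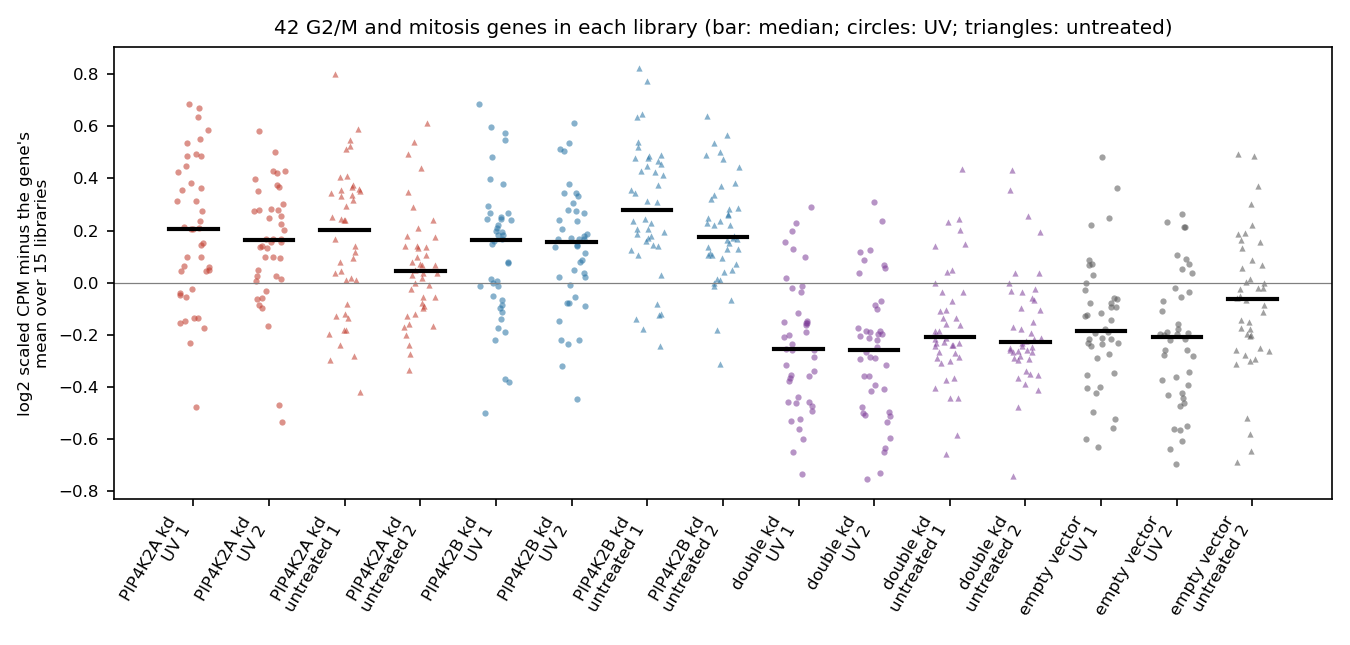
Each point is 1 of 42 genes in 1 library, as log2 scaled CPM minus the mean of that gene over 15 libraries, and the bar is the median; circles are UV-treated and triangles untreated libraries. The medians of the 8 single-knockdown libraries lie between 0.04 and 0.28, and those of the double knockdown and empty vector between -0.26 and -0.06.

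The UV response was first taken as the mean of the 4 lines. On TMM scaling 17 of the 42 genes fell and 15 rose (edgeR quasi-likelihood test, Benjamini-Hochberg adjusted p under 0.05 over all genes), with a median log2 change of -0.03. Together these are 76.2% of the 42 genes, and of all genes tested 57.6% were called in this comparison, 27.7% as lower and 29.9% as higher. The falls and rises lay in different genes of the same machinery. Among mitotic kinases AURKA, TTK and PLK4 fell and NEK2 rose. Of the spindle checkpoint and APC/C genes 5 rose (UBE2C, PTTG1, CDC20, MAD2L1, BUB3) and 3 fell (BUB1B, SGO1, BUB1). The smallest changes were those of KIF20A (0.00 ± 0.05, SE), the cytokinesis exchange factor ECT2 (0.01 ± 0.06) and the spindle protein DLGAP5 (0.01 ± 0.06). The split into falls and rises depends on the scaling. With library totals alone 28 genes fell and 3 rose (PTTG1, BIRC5 and UBE2C), and with scaling to 77 cytosolic ribosomal protein genes all 42 fell. Of all 22597 genes, 10435 fell and 2899 rose with library totals, and 18369 fell and 261 rose with ribosomal protein gene scaling. With these scalings the median of all genes moved to -0.27 and -0.81, and the median of the 42 genes lay -0.05 and -0.06 from it.

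The lowest p among the falls belonged to 2 kinase genes and a cyclin gene. AURKA (chromosome 20, 56369389 to 56392337, minus strand, GRCh38), the Aurora A kinase of the spindle poles, had 73.3 and 87.4 scaled CPM in UV-treated PIP4K2A-knockdown cells, against 126 and 131 in untreated ones. In the PIP4K2B knockdown it had 98.7 and 94.8 after UV, against 152 and 134 untreated, and in the double knockdown 51.7 and 51.9, against 79.8 and 85.8. Empty-vector libraries had 55.5 and 53.1 after UV, against 94.3 in the untreated library. In no line did the groups overlap, and the mean log2 change was -0.68 ± 0.05 (SE, edgeR adjusted p = 2.62e-07). TTK (chromosome 6, 80003887 to 80042527, plus strand), the checkpoint kinase MPS1, ranged from 24.3 to 36.6 scaled CPM in the 8 UV-treated libraries, against 48.8 to 66.3 in the 7 untreated ones. Its mean change of -0.97 ± 0.08 was the largest fall of the 42 genes (adjusted p = 3.8e-07). CCNF, which encodes cyclin F, the substrate receptor of an SCF ubiquitin ligase, had 60.6 to 91.1 scaled CPM after UV, against 104 to 147 untreated, a change of -0.81 ± 0.07 (adjusted p = 5.83e-07). Exons of CCNF are overlapped by 2 genes on the other strand, so reads of these cannot be told apart where counting ignored strand.

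CENPA, the centromeric histone, ranged from 20.5 to 27.6 scaled CPM after UV, against 33.9 to 41.5 untreated, with no overlap (mean log2 change -0.75 ± 0.07, edgeR adjusted p = 1.3e-06). Its exons overlap those of SLC35F6 on the same strand, which may share its counts. The kinesins KIF18A, which limits chromosome movement, and KIF23, of the central spindle, fell by 0.54 ± 0.06 and 0.42 ± 0.05 on the log2 scale. The centriole kinase PLK4 and the checkpoint kinase-like BUB1B had changes of -0.49 ± 0.06 and -0.29 ± 0.04. AURKA, TTK, CCNF, CENPA, KIF18A and KIF23 passed the test as lower in each of the 4 lines, which share no library but were fitted together. Their sign stayed negative with both other scalings, which also moved the median of all genes down (-0.27 and -0.81). Keeping a negative sign there is therefore no separate evidence of a fall. With the set-aside library kept, TTK, KIF23 and KIF18A turned positive in empty vector (0.017, 0.23 and 0.28).

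The clearest rises on TMM scaling were those of 3 short genes. PTTG1 (chromosome 5, 160421822 to 160428744, plus strand) had 140.3 and 146 scaled CPM in UV-treated PIP4K2A-knockdown cells, against 98.5 and 95.7 untreated. In the PIP4K2B knockdown it had 165 and 160.1 after UV, against 104 and 122, and in the double knockdown 132 and 133, against 91.6 and 86.3. Empty-vector libraries had 97.5 and 97.0 after UV, against 72.1 untreated. UBE2C (chromosome 20, 45812576 to 45816957, plus strand) ranged from 119 to 208 scaled CPM after UV, against 81.4 to 149 untreated. These ranges overlap across lines, yet within each line both UV libraries were higher. BIRC5 (chromosome 17, 78214186 to 78225636, plus strand), survivin of the chromosomal passenger complex, had 186 to 223 scaled CPM after UV, against 129.8 to 156 untreated. The mean changes were 0.52 ± 0.05 for PTTG1, 0.50 ± 0.05 for UBE2C and 0.51 ± 0.05 for BIRC5, each called in all 4 lines, but all 3 turn negative with ribosomal protein gene scaling (-0.30, -0.33 and -0.32). The PTTG1 copies PTTG2 and PTTG3P had at most 0.250 and 0.0349 CPM of the library total. CDC20 rose by 0.31 ± 0.06 on TMM scaling, and its pseudogene CDC20P1 had at least 4.92 CPM of the library total in each library.

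**Figure D2:**
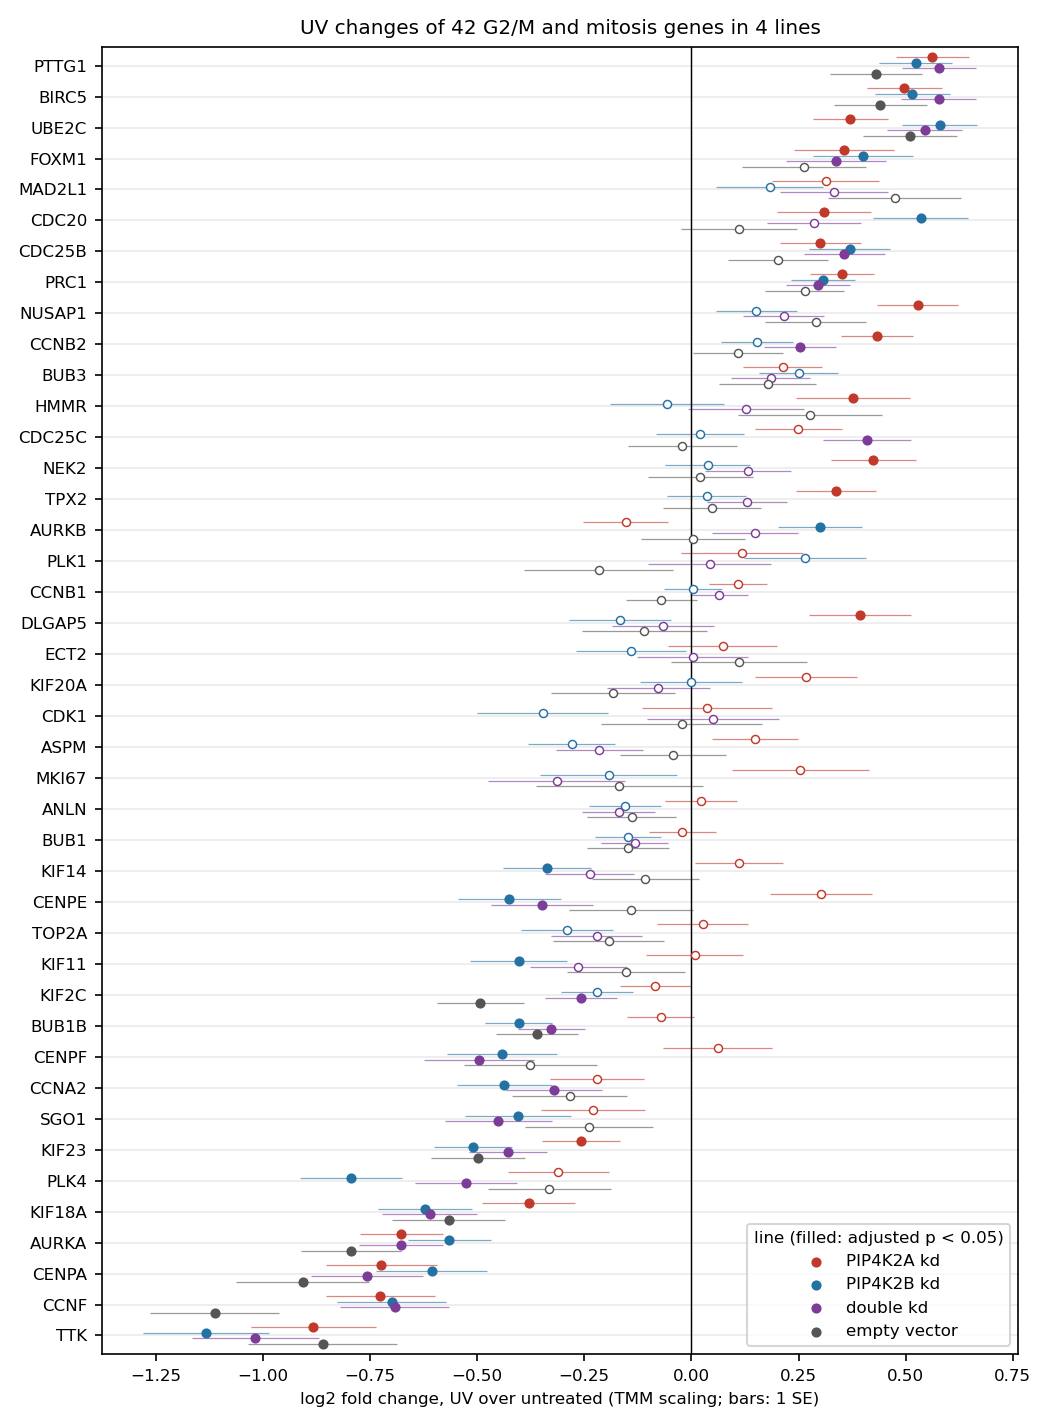
Log2 fold change of UV over untreated (horizontal axis, TMM scaling, bars 1 SE) for 42 genes in 4 lines, ordered by their mean; filled points passed the test at adjusted p under 0.05. TTK, CCNF, CENPA and AURKA lie at the low end in all 4 lines and PTTG1, BIRC5 and UBE2C at the high end.

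Within single lines, the PIP4K2A knockdown had 13 genes higher (16.6% of all genes tested were) and 6 lower (14%), with a median log2 change of 0.11. The PIP4K2B knockdown had 8 higher (17.5%) and 14 lower (15.4%), with a median of -0.15. The double knockdown had 8 higher (19.1%) and 13 lower (16.1%), with a median of -0.07. Empty vector had 3 higher (8.67%) and 8 lower (9.82%), with a median of -0.11. No gene passed the test in opposite directions in different lines, and 12 genes, among them CDK1, CCNB1, PLK1, TOP2A and MKI67, passed in no line. Summed markers of epithelial cells, mostly KRT8 and KRT18, were 324 to 934 CPM after UV, against 269 to 496 CPM untreated, and their part in these changes was not tested.

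These counts move with the scaling and with single libraries. With library totals alone the PIP4K2A knockdown had 1 gene higher and 13 lower, the PIP4K2B knockdown 1 and 26, the double knockdown 2 and 23, and empty vector 0 and 17. With ribosomal protein gene scaling they were 0 and 39, 0 and 42, 0 and 41, and 0 and 37 in the same order. Of all 22597 genes, library totals called 1382 higher and 5631 lower, 1491 and 6799, 1276 and 6763, and 584 and 4290 in that order. Ribosomal protein gene scaling called 195 and 14444, 128 and 15160, 135 and 14707, and 150 and 10894, so these falls were shared by a large part of all genes. The 19 calls in the PIP4K2A knockdown became 12 without PIP4K2B-knockdown UV replicate 1 or without either double-knockdown UV library, and 3 when the groups compared were fitted alone. The 22 calls in the PIP4K2B knockdown became 13 without its untreated replicate 1 and 12 without its UV replicate 1. The 21 of the double knockdown became 11 without its untreated or UV replicate 1 and 12 without its UV replicate 2. The 11 of empty vector became 7 without its UV replicate 1, and the PTTG1 and BUB1B calls there were lost without either UV library.

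Whether the UV response itself differed from that of empty vector was tested for each knockdown. No gene of the 42 passed in the PIP4K2A knockdown (0.00885% of all genes were called), the PIP4K2B knockdown (0%) or the double knockdown (0.00885%) with edgeR, and none with DESeq2. At an unadjusted p under 0.05 there were 8 genes in the PIP4K2A knockdown, all with a more positive response, 2 in the PIP4K2B knockdown and 1 in the double knockdown. The share of all genes at that threshold was not counted, so these numbers have no reference and are not read as a result. The lowest p was that of the microtubule-depolymerising kinesin KIF2C in the PIP4K2A knockdown, whose difference was 0.41 ± 0.13 on the log2 scale (edgeR adjusted p = 0.90). The median standard error of such a difference was 0.16 to 0.17, so differences of this size were not detectable with these libraries. Without PIP4K2A-knockdown UV replicate 2 some genes passed in the PIP4K2A knockdown, with a more positive response. That fit rests on UV replicate 1 alone for this group, and the share of all genes passing in it is not given here. No difference in response is read from it.

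The knockdown lines were then compared with empty vector after UV, where each group has 2 libraries. In the PIP4K2A knockdown 25 of 42 genes were higher (11.3% of all genes tested were) and none lower (9.01%), with a median log2 change of 0.45. In the PIP4K2B knockdown 23 were higher (10.7%) and 1 lower (8.3%), with a median of 0.36. In the double knockdown 4 were higher (8.5%) and 4 lower (6.86%), with a median of -0.05. The median of all genes was 0.01, 0.00 and 0.00 in these comparisons, which share the empty-vector libraries. Cell type markers moved in the same comparisons. Of 7 epithelial markers tested, the PIP4K2A knockdown had 4 higher and 1 lower, the PIP4K2B knockdown 2 and 1, and the double knockdown 3 and 1. Their summed level was 554 to 934 CPM in the PIP4K2A knockdown, 602 to 653 in the PIP4K2B knockdown and 603 to 611 in the double knockdown, against 324 and 324 in empty vector. EPCAM and CDH1 stayed at or under 6.32 and 5.51 CPM. Of 7 mesenchymal markers tested, 3 were lower in each knockdown and 1 was higher, in the PIP4K2A knockdown. The part of these markers in the results was not tested.

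The rises in the single knockdowns were counted by role, and the roles were not tested against each other. Of 9 kinesin and spindle genes 8 were higher in the PIP4K2A knockdown and 6 higher and 1 lower in the PIP4K2B knockdown. HMMR, a spindle-pole protein that binds microtubules, had 75.1 and 80.3 scaled CPM in the PIP4K2A knockdown, against 43.8 and 36.6 in empty vector (log2 change 0.95 ± 0.13, edgeR adjusted p = 0.000448). It had 63.9 and 66.3 in the PIP4K2B knockdown (0.69 ± 0.13, adjusted p = 0.00332), so no single-knockdown library overlapped empty vector. HMMR has an antisense neighbour, HMMR-AS1, over its exons. NUSAP1, which bundles spindle microtubules, had 226 and 208 scaled CPM in the PIP4K2A knockdown and 186 and 196 in the PIP4K2B knockdown, against 131 and 122 in empty vector. TPX2, which activates Aurora A on the spindle, had 644 and 547 in the PIP4K2A knockdown and 504 and 512 in the PIP4K2B knockdown, against 383 and 366. KIF11, the motor that pushes spindle poles apart, was the exception, with 102 and 114 scaled CPM in the PIP4K2B knockdown, against 155 and 139.8 in empty vector (-0.45 ± 0.11, adjusted p = 0.015).

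Of 8 spindle checkpoint and APC/C genes, the PIP4K2A knockdown had 4 higher and the PIP4K2B knockdown 5. BUB1B (chromosome 15, 40161023 to 40221136, plus strand), the BubR1 component of the checkpoint complex, had 81.9 and 88.9 scaled CPM in the PIP4K2A knockdown, against 53.9 and 53.6 in empty vector (0.67 ± 0.08, edgeR adjusted p = 0.000122). In the PIP4K2B knockdown it had 83.7 and 87.1 (0.67 ± 0.08, adjusted p = 9.55e-05). Its exons are shared with the read-through gene BUB1B-PAK6 on the same strand, which may take a part of its counts. PTTG1 was higher by 0.56 ± 0.09 in the PIP4K2A knockdown and by 0.74 ± 0.09 in the PIP4K2B knockdown, and UBE2C by 0.44 ± 0.09 and 0.62 ± 0.09. CDC20 had 421 and 380.1 scaled CPM in the PIP4K2B knockdown, against 275 and 259 in empty vector (0.59 ± 0.11, adjusted p = 0.00268), and 309 and 271 in the PIP4K2A knockdown, where it did not pass (0.12 ± 0.11).

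Among mitotic kinases AURKA was higher by 0.57 ± 0.10 in the PIP4K2A knockdown and by 0.83 ± 0.10 in the PIP4K2B knockdown. AURKB, the kinase of the chromosomal passenger complex, had 57.8 and 55.4 scaled CPM in the PIP4K2B knockdown, against 37.3 and 37.9 in empty vector (0.59 ± 0.10, edgeR adjusted p = 0.00121). In the PIP4K2A knockdown it had 35.4 and 36.3 (-0.07 ± 0.10, not passing). The difference between the single knockdowns was not tested. Of the cyclin, CDK1, CDC25 and FOXM1 genes, 4 of 8 were higher in each single knockdown. CCNB1 had 319.9 and 316 scaled CPM in the PIP4K2A knockdown and 341 and 346 in the PIP4K2B knockdown, against 245 and 251 in empty vector. FOXM1 passed in neither (0.17 ± 0.12 and 0.34 ± 0.12). Centromere and chromosome genes had 3 of 6 higher in the PIP4K2A knockdown (CENPE, TOP2A, CENPF) and 0 of 6 in the PIP4K2B knockdown, and cytokinesis genes had 4 of 5 higher in each.

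The libraries of the UV-treated PIP4K2A knockdown differed among themselves. MKI67, the proliferation marker Ki-67, had 1344 scaled CPM in replicate 1 and 814 in replicate 2, and CENPE had 156 and 118. When only this group and UV-treated empty vector were fitted, 2 of the 25 rises passed, though the median change stayed at 0.43. Without any library in turn, 18 to 30 genes were called in that comparison. In the PIP4K2B knockdown 14 genes were called without its UV replicate 1 or without empty-vector UV replicate 2, and 14 to 27 over all libraries left out. With library totals alone the PIP4K2A knockdown had 27 genes higher and 0 lower, and the PIP4K2B knockdown 16 and 1. With ribosomal protein gene scaling they were 32 and 0, and 19 and 0. Of all 22597 genes, library totals called 2914 higher and 1820 lower in the PIP4K2A knockdown, and 1782 and 2475 in the PIP4K2B knockdown. Ribosomal protein gene scaling called 4821 and 834, and 1889 and 1491.

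**Figure D3:**
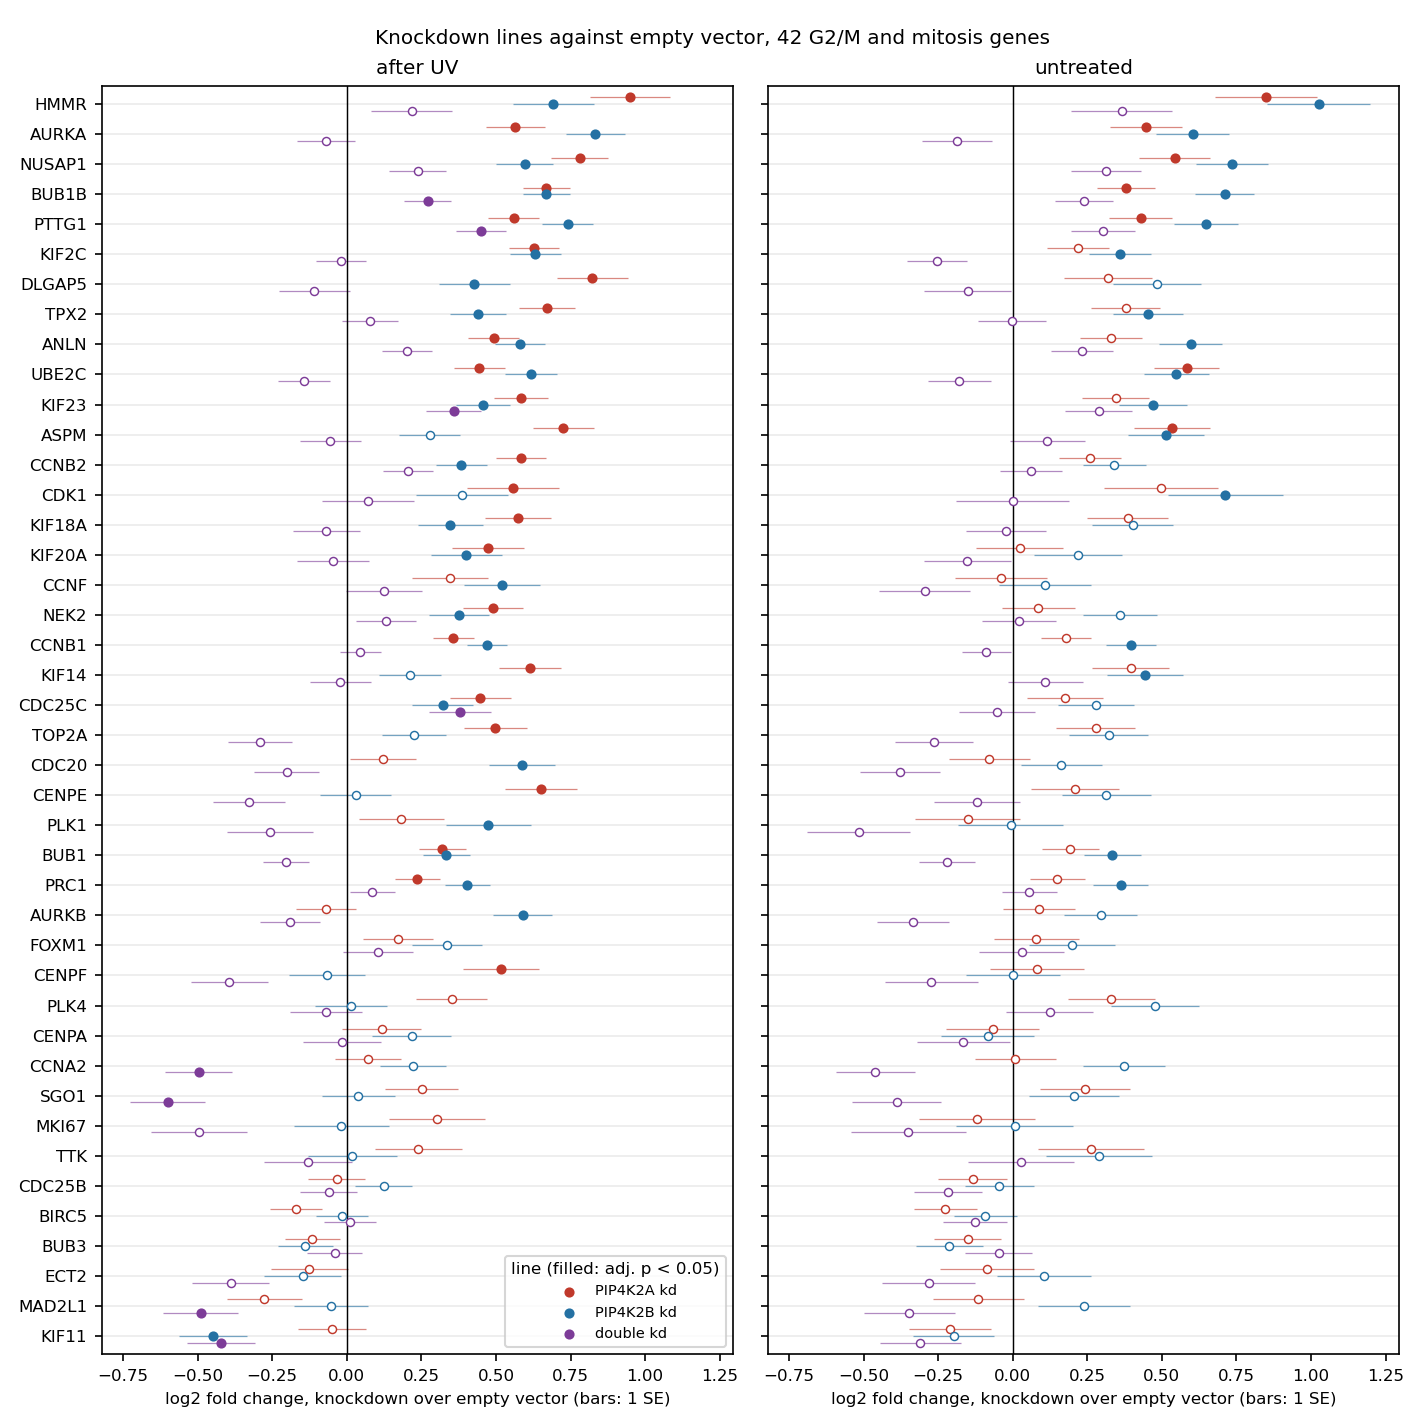
Log2 fold change of each knockdown over empty vector (horizontal axis, bars 1 SE) for 42 genes after UV (left) and untreated (right, with 1 empty-vector library); filled points passed the test. The single knockdowns lie mostly right of 0 in both panels, with medians of 0.45 and 0.36 after UV, while the double knockdown scatters around -0.05.

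In the double knockdown after UV the 4 higher genes were PTTG1 (0.45 ± 0.09), CDC25C (0.38 ± 0.10), the central spindle kinesin KIF23 (0.36 ± 0.09) and BUB1B (0.27 ± 0.08). Its 4 lower genes were SGO1, the shugoshin that protects cohesion (-0.60 ± 0.13), the S and G2 cyclin CCNA2 (-0.50 ± 0.11), the checkpoint gene MAD2L1 (-0.49 ± 0.13) and KIF11 (-0.42 ± 0.11). SGO1 had 21.0 and 18.9 scaled CPM in the double knockdown, against 32.5 and 28.0 in empty vector, and CCNA2 had 87.5 and 80.7, against 119.9 and 117. Neither gene overlapped between the groups. The 8 calls became 1 without empty-vector UV replicate 1 or double-knockdown UV replicate 2 and 2 without double-knockdown UV replicate 1. They became 4 without empty-vector UV replicate 2, and 15 and 16 without PIP4K2A-knockdown UV replicate 1 and 2. Only the PTTG1 call stayed when each library was left out in turn, and with ribosomal protein gene scaling 3 genes were higher and 0 lower. With library totals 3 were higher and 7 lower. Of all 22597 genes, 2731 were higher and 769 lower with ribosomal protein gene scaling, and 1581 and 1873 with library totals.

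In untreated cells the comparison with empty vector rests on 1 empty-vector library. The PIP4K2A knockdown had 7 genes higher (3.71% of all genes tested were) and none lower (4.13%), with a median of 0.20. The PIP4K2B knockdown had 16 higher (5.26%) and none lower (4.99%), with a median of 0.34. The double knockdown had none higher (3.24%) or lower (2.96%) with edgeR and 1 lower with DESeq2, with a median of -0.12. HMMR had 75.1 and 60.2 scaled CPM in the PIP4K2B knockdown, 66.9 and 52.7 in the PIP4K2A knockdown and 45.4 and 40.3 in the double knockdown, against 33.2 in empty vector. Its log2 changes were 1.03 ± 0.17, 0.85 ± 0.17 and 0.37 ± 0.17, of which the first and second passed (edgeR adjusted p = 0.00237 and 0.00997). BUB1B had 114 and 112 scaled CPM in the PIP4K2B knockdown, against 69.0 in empty vector (0.71 ± 0.10, adjusted p = 0.000693), and UBE2C had 129 and 149, against 94.9 (0.55 ± 0.11, adjusted p = 0.0068).

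The untreated counts also moved with single libraries. The 7 calls of the PIP4K2A knockdown became 1 without its untreated replicate 1, 12 without its untreated replicate 2 and 14 without either of its UV libraries. The 16 calls of the PIP4K2B knockdown became 7 without its untreated replicate 1 and 10 without either double-knockdown UV library. The double knockdown had 1 call without either untreated PIP4K2A-knockdown library, and 6 and 7 without the UV replicates 1 and 2 of that knockdown. Fitted with empty vector alone the double knockdown had a median log2 change of -0.12, beside -0.01 for all genes. With ribosomal protein gene scaling its median was 0.15, beside 0.26 for all genes.

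The double knockdown was therefore also set against each single knockdown, a comparison whose log2 changes use no empty-vector library. The spread was still estimated over all groups together, and with the set-aside library kept these comparisons had 0 calls. All calls in the main fit were falls. Untreated, 14 genes were lower than in the PIP4K2A knockdown (3.57% of all genes tested were) and 29 lower than in the PIP4K2B knockdown (8.06%), with median log2 changes of -0.25 and -0.40. After UV, 27 were lower than in the PIP4K2A knockdown (9.71%) and 24 lower than in the PIP4K2B knockdown (9.09%), with medians of -0.41 and -0.36. Both comparisons of a condition share the double-knockdown libraries. None of the 42 genes was called higher in any of them, where 3.53%, 7.32%, 9.81% and 8.64% of all genes were in the same order. All 9 kinesin and spindle genes fell against the PIP4K2A knockdown after UV, and 8 of 9 against the untreated PIP4K2B knockdown.

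UBE2C had 86.3 and 81.4 scaled CPM in the untreated double knockdown, against 140.5 and 144 in the PIP4K2A knockdown (-0.76 ± 0.09, edgeR adjusted p = 0.000214) and 129 and 149 in the PIP4K2B knockdown (-0.73 ± 0.09, adjusted p = 0.000127). After UV it had 126 and 119, against 186 and 182 (-0.59 ± 0.09) and 206 and 208 (-0.76 ± 0.09). AURKA was lower by a similar amount in all 4 comparisons, from -0.63 ± 0.10 against the PIP4K2A knockdown to -0.90 ± 0.10 against the PIP4K2B knockdown after UV. KIF2C had 91.2 and 88.9 scaled CPM in the UV-treated double knockdown, against 149.7 and 132 in the PIP4K2A knockdown and 144 and 139 in the PIP4K2B knockdown. No library of the double knockdown overlapped a single knockdown for these 3 genes in the same condition. CENPE showed the largest fall after UV, with 70.5 and 68.6 scaled CPM, against 156 and 118 in the PIP4K2A knockdown (-0.98 ± 0.12), while against the PIP4K2B knockdown, at 85.7 and 92.7, it did not pass. Positive signs, none of which passed the test, were seen for 2 and 1 genes untreated and 2 and 4 after UV, against the PIP4K2A and PIP4K2B knockdowns. BUB3, whose product binds BUB1 and BubR1, had one in all 4 comparisons, BIRC5 in all but the untreated one with the PIP4K2B knockdown, and CDC25C and KIF11 against the UV-treated PIP4K2B knockdown. BUB3 had 125.7 and 124 scaled CPM in the untreated double knockdown, against 114 and 118 in the PIP4K2A knockdown.

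**Figure D4:**
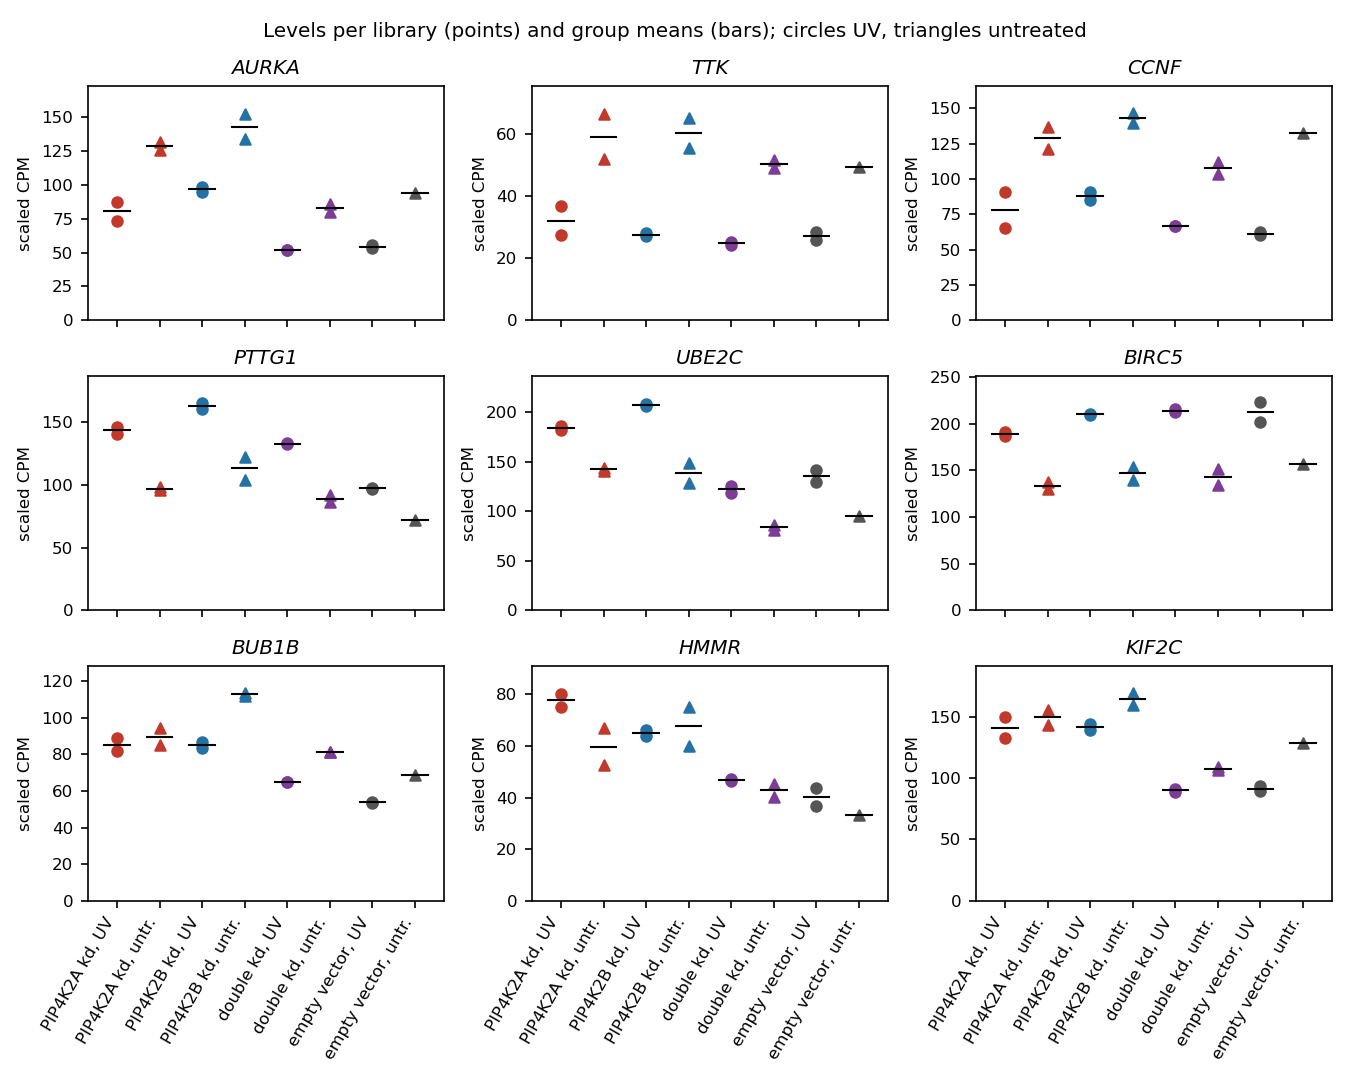
Scaled CPM (vertical axes, from 0) of 9 genes in each library, with bars at group means; circles are UV-treated and triangles untreated libraries, and untreated empty vector has 1 library. AURKA, UBE2C and KIF2C are lower in the double knockdown than in both single knockdowns in each condition, and AURKA, TTK and CCNF are lower after UV in all 4 lines.

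The number of these falls moved with the scaling and with single libraries. With ribosomal protein gene scaling the 14 and 29 untreated falls became 5 and 10, and the 24 against the UV-treated PIP4K2B knockdown became 7, with none of the 42 called higher. Of all 22597 genes that scaling called 511 higher and 548 lower, 2077 and 899, and 2531 and 1070 in the same order. Against the untreated PIP4K2A knockdown the 14 calls became 4 without its untreated replicate 1 or the double-knockdown untreated replicate 1, and 2 without the untreated replicate 2 of the double knockdown. They became 8 without any UV library of the PIP4K2B or double knockdown. Against the untreated PIP4K2B knockdown the 29 became 12, 19, 16 and 12 without its untreated replicates 1 and 2 and those of the double knockdown. After UV the 27 calls against the PIP4K2A knockdown became 17 and 15 without the UV replicates 1 and 2 of the double knockdown, and 4 when the groups compared were fitted alone. The 24 against the PIP4K2B knockdown became 13 and 12 without its UV replicates 1 and 2, and 12 and 9 without those of the double knockdown.

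Other genes of the same pathway were read from lists. Of 45 further G2/M and mitosis genes, 9 rose and 19 fell in the mean UV response on TMM scaling, where 29.9% of all genes tested were higher and 27.7% lower. FAM83D, a spindle protein, fell by 1.42 ± 0.04 on the log2 scale and HJURP, the chaperone that loads CENPA, by 0.90 ± 0.05. After UV 18 of the 45 were higher and 0 lower in the PIP4K2A knockdown, 15 higher and 1 lower in the PIP4K2B knockdown, and 0 higher and 4 lower in the double knockdown, all against empty vector. The shares of all genes higher and lower there were 11.3% and 9.01%, 10.7% and 8.3%, and 8.5% and 6.86% in the same order. Against the single knockdowns the double knockdown had 24 and 25 of the 45 lower after UV and 13 and 27 lower untreated, and none higher, where 9.71%, 9.09%, 3.57% and 8.06% of all genes were lower. The mitotic kinase gene PBK was 1.05 ± 0.12 higher in the PIP4K2A knockdown and 1.25 ± 0.12 higher in the PIP4K2B knockdown than in empty vector after UV. Its level was 100.6 and 102 scaled CPM in the double knockdown, against 159.6 and 206 in the PIP4K2A knockdown and 202 and 218 in the PIP4K2B knockdown.

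The 35 G1/S and DNA replication genes moved in both directions. After UV, 6 were higher and 8 lower in the PIP4K2A knockdown, 6 higher and 3 lower in the PIP4K2B knockdown, and 1 higher and 2 lower in the double knockdown, beside the same shares of all genes as for the mitosis list. Against the single knockdowns after UV the double knockdown had 7 higher and 3 lower (9.81% and 9.71% of all genes), and 3 higher and 4 lower (8.64% and 9.09%). In the mean UV response 18 of the 35 rose (29.9% of all genes did) and 8 fell (27.7%), among them CDC25A, the G1/S phosphatase, by 1.43 ± 0.07.

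Regulators of these promoters were read in the same way. Of 16 genes of the DREAM, MuvB and B-MYB complexes and their partners, 5 rose and 6 fell in the mean UV response, shares close to the 29.9% higher and 27.7% lower of all genes tested. NFYA, a subunit of the CCAAT-binding NF-Y, fell by 0.95 ± 0.04 on the log2 scale, and LIN54, the MuvB subunit that binds CHR elements, by 0.61 ± 0.05. On TMM scaling MYBL2, the gene of B-MYB, rose by 0.62 ± 0.08 and had 310.3 to 511 scaled CPM after UV, against 184 to 286 untreated. Its change was 0.68, 0.86 and 0.63 in the PIP4K2A, PIP4K2B and double knockdowns and 0.33 in empty vector, where it did not pass. Ribosomal protein gene scaling moved the median mean UV change of all genes to -0.81, and the change of MYBL2 on it is not given here. E2F4 did not pass in the UV response (-0.05 ± 0.04), and was lower in the double knockdown than in empty vector after UV (-0.40 ± 0.08, edgeR adjusted p = 0.00697). TFDP1, the dimer partner of E2F factors, was lower there too (-0.70 ± 0.09). Of the 16 genes, 0 were higher and 6 lower in that comparison, where 8.5% and 6.86% of all genes were. In the PIP4K2A knockdown 3 were higher and 0 lower than in empty vector after UV (11.3% and 9.01%), and in the PIP4K2B knockdown 2 and 0 (10.7% and 8.3%). Against these knockdowns after UV the double knockdown had 0 higher and 6 lower (9.81% and 9.71%), and 1 and 7 (8.64% and 9.09%).

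Of 25 p53 and G2 arrest genes, 8 rose and 9 fell in the mean UV response, again near the shares of all genes (29.9% and 27.7%). WEE1, the kinase that inhibits CDK1, ranged from 23.6 to 33.0 scaled CPM after UV, against 69.6 to 83.6 untreated, a change of -1.38 ± 0.07 (edgeR adjusted p = 6.58e-09). CHEK1, the checkpoint kinase of damaged DNA, did not pass (0.15 ± 0.06, adjusted p = 0.057). CDKN1A, the gene of the CDK inhibitor p21, had 331 and 327 scaled CPM in the UV-treated double knockdown, 253 and 206 in the PIP4K2A knockdown and 266 and 257 in the PIP4K2B knockdown, against 193.1 and 193.5 in empty vector. It was higher in the double knockdown than in empty vector after UV (0.77 ± 0.09, adjusted p = 0.00017) and untreated (0.50 ± 0.12, adjusted p = 0.024). It was also higher in the PIP4K2B knockdown than in empty vector after UV (0.43 ± 0.09, adjusted p = 0.00565), and did not pass in the PIP4K2A knockdown (0.25 ± 0.09, adjusted p = 0.079). In the double knockdown after UV it was 0.52 ± 0.09 and 0.33 ± 0.09 higher than in the PIP4K2A and PIP4K2B knockdowns. Untreated it was 0.35 ± 0.09 higher than in the PIP4K2A knockdown (adjusted p = 0.037) and did not pass against the PIP4K2B knockdown (0.21 ± 0.09, adjusted p = 0.15). GADD45A, a p53 target that restrains CDK1, was higher in the PIP4K2A knockdown (0.79 ± 0.11) and the PIP4K2B knockdown (1.15 ± 0.11) than in empty vector after UV. Of the 25 genes, 7 were higher and 2 lower in that PIP4K2A-knockdown comparison, where 11.3% and 9.01% of all genes were. There were 9 and 2 in the PIP4K2B knockdown (10.7% and 8.3%) and 5 and 3 in the double knockdown (8.5% and 6.86%). Untreated, against 1 empty-vector library, the median log2 changes of the 25 genes were 0.15, 0.28 and -0.05 in the same order.

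The 42 genes also differ in length. The 17 genes that fell in the mean UV response had a median span of 36.8 kb, the 10 that did not pass 23.1 kb and the 15 that rose 19.4 kb. The 36.8 kb is the span of CENPA itself in GENCODE. Its GENCODE start (26764289) lies before the RefSeq promoter stretch printed above (from 26785906), so this median depends on the annotation. Over all 42 genes Spearman's rho between span and mean UV log2 change was -0.43, given as a description across genes measured in the same libraries. The spans overlapped widely, from 7.49 to 87.7 kb among the genes that fell and 4.25 to 62.5 kb among those that rose. Of the 42 genes, 17 have an exon overlapped by another gene, 14 on the other strand and 4 on the same strand (BUB1B, NUSAP1, CENPA and PRC1), and the strand setting of the counting is not given in the sources used here.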

How the data were processed

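Per the labels' protocols, ribosomal RNA was removed from total RNA before a directional library preparation. The deposited tables hold expected counts per gene, which per the file headers the authors did not normalize, and TPM, which the authors scaled for length and depth. STAR, SAMtools, RSEM and GRCh38 are listed in the submitters' processing notes; settings and annotation are not stated there. Symbols came from a separate list of gene names, gene positions and exon overlaps from GENCODE 29, and promoter positions from RefSeq.

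Expected counts were rounded and fitted in edgeR 4.0.16 (R 4.3.3): filterByExpr with a minimum count of 10, TMM, 1 term per group, 15 libraries, a quasi-likelihood test with Benjamini-Hochberg adjustment over 22597 genes and a threshold of 0.05. The standard error is the size of the log2 change divided by the square root of F. The biological coefficient of variation was 11.3%. Intervals for single counts were not needed at these depths. The same fit was also run on counts simulated with known changes and the fitted spread. Such counts cannot check the assumption that the untreated empty-vector library varies like the others. DESeq2 1.42.0, RLE, library totals, ribosomal protein gene scaling, other filters, a replicate block, only the groups compared and leaving out each library were alternatives.

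The members, lists and tests were chosen with earlier results of these data known. Named genes were up to 12 members past the test with the lowest p per comparison, those with the highest level and smallest change, up to 4 genes of each other list, and CDKN1A, MYBL2, E2F4, WEE1 and CHEK1; the text gives a part, and the replicate pair of MKI67, the other level ranges and the genes marked as exceptions were chosen after their values were seen. Python 3.11.15, pandas 2.3.3 and matplotlib 3.10.9 served for tables and plots.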

Additional observations from a re-analysis of the deposited data

How the results depend on the processing

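The counts moved with the set-aside library, the scaling, the groups fitted and single libraries. With all 16 libraries 0 genes of the 42 were called in every comparison except the mean UV response (1), and in empty vector the UV changes of TTK, KIF2C, KIF23, KIF18A and BUB1B reversed, to 0.017, 0.41, 0.23, 0.28 and 0.56. Under ribosomal protein gene scaling 10894, 14444, 15160 and 14707 of all 22597 genes were lower after UV in empty vector and the PIP4K2A, PIP4K2B and double knockdowns. The calls among the 42 genes were 37, 39, 42 and 41 in the same order. Against the 1 untreated empty-vector library the 42 genes had a median log2 change of 0.51 (PIP4K2A knockdown) and 0.15 (double knockdown). For all genes it was 0.32 and 0.26. After UV 3 of the 42 were higher and 0 lower in the double knockdown than in empty vector, where 2731 and 769 of all 22597 genes were. The double knockdown against the single ones had 5 and 10 calls untreated and 7 against the UV-treated PIP4K2B knockdown. That scaling turned UV rises into falls. UBE2C, BIRC5 and PTTG1 had -0.43, -0.30 and -0.24 in the PIP4K2A knockdown. They had -0.33, -0.39 and -0.38 for PIP4K2B, -0.33, -0.29 and -0.30 for the double knockdown, -0.22, -0.28 and -0.30 for empty vector and -0.33, -0.32 and -0.30 for the mean. In the PIP4K2A knockdown NUSAP1, CCNB2, PRC1, NEK2 and TPX2 had -0.29, -0.38, -0.46, -0.39 and -0.48. CDC20 had -0.37 in the PIP4K2B knockdown, CDC25C -0.46 in the double knockdown and PRC1 -0.52 in the mean. With library totals alone 17 of the 42 genes were called for UV in empty vector, where 584 of all 22597 genes were higher and 4290 lower.

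With only the groups compared, UV gave 18 calls in empty vector, 3 in the PIP4K2A knockdown and 32 in the double knockdown. Against empty vector there were 1 and 2 calls in the PIP4K2A knockdown untreated and after UV, and 14 and 21 in the double knockdown. Against the PIP4K2A knockdown the double knockdown had 9 untreated and 4 after UV. DESeq2 called 11 genes in the untreated PIP4K2A knockdown and 1 in the untreated double knockdown, no filter gave 2 there, and a CPM above 1 in 2 libraries gave 13 for the double knockdown after UV. The share of all genes called in each of these fits is not given here, so the counts have no reference. They are not read as a result about these genes. The cause of the differences between fits was not tested.

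Leaving out each library gave, for UV, 7 to 16 calls in empty vector, 12 to 23 in the PIP4K2A knockdown, 12 to 29 in the PIP4K2B knockdown, 11 to 26 in the double knockdown and 24 to 33 in the mean. Against untreated empty vector it gave 1 to 14, 7 to 23 and 0 to 7 in the PIP4K2A, PIP4K2B and double knockdown, and after UV 18 to 30, 14 to 27 and 1 to 16. Differences of UV responses had 0 to 9, 0 to 0 and 0 to 0. The double knockdown had 2 to 21 and 12 to 34 against the untreated single knockdowns, and 15 to 28 and 9 to 30 after UV. Of 158 named calls, 44 were lost without some library and none changed sign.

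No strong effect shared by libraries of the same replicate number was seen, which does not show whether they were prepared together. Over 21 pairs of 7 groups the deviations correlated from -0.117 to 0.187 with a median of 0.000899. With the replicate number as a block, 5 genes were higher in the untreated PIP4K2A knockdown and 11 in the untreated PIP4K2B knockdown, and after UV 24 were called in the PIP4K2A and 22 in the PIP4K2B knockdown. The share of all genes called with that block is not given here, so these counts have no reference. TTTGAA or TTTAAA within 100 bases before to 50 after the start stood in 26 of 35 promoters (74.3%), against 11.2% of all.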
